A study of Mus musculus with 17 samples.

Results

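Broad domains of histone H3 acetylated at lysine 9 (H3K9ac) were examined in mouse liver. A broad domain was a region of 4000 bases or more in the authors' list of H3K9ac regions, at any distance from a gene. There were 770 such domains among 57499 regions. One group of livers came from C57BL/6 mice kept for 10 weeks on a high-fat diet (HFD, 60% of calories from fat). They were compared with livers of C57BL/6 mice kept on a control diet (CD, 18% of calories from fat) for the same time. H3K9ac was profiled by chromatin immunoprecipitation and sequencing (ChIP-seq) in 3 HFD livers (A, B and D) and 3 CD livers (A, C and D). RNA was sequenced in 4 livers of each diet (A to D). The labels do not state the hour of collection, the feeding state, or whether a letter marks the same animal in both assays. They also list a CD input library and a pair of CD open-chromatin libraries, which were not analysed here, so no domain was set against an input. They also do not state that the libraries of a diet came from separate animals, so p-values measure only the spread between these libraries.

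Acetylation of lysine 9 on histone H3 is placed by acetyltransferases and removed by deacetylases, and it is typical of active promoters. At most active genes the mark sits in a narrow stretch around the transcription start site. At some genes it runs on over several kilobases of the transcribed gene. In many tissues such wide domains have been described over genes that set the identity of the cell, and over genes that respond quickly to signals.

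To show what lies at the start sites within these domains, the RefSeq promoter windows (GRCm38.p6) are given for 5 genes. They run from 250 bases before to 50 bases after the start site, 5′ to 3′ on the strand of the gene, with each CG dinucleotide (CpG) in capitals. Mfsd2a (chr4:122961139-122961438, minus strand) and Dbp (chr7:45704997-45705296, plus strand) lie within the domains with the largest increases on HFD. Selenbp2 (chr3:94693323-94693622, plus strand) and Cyp8b1 (chr9:121916256-121916555, minus strand) have 2 of the domains with the largest decreases, and the Selenbp2 domain begins within the window. Mknk2 (chr10:80676244-80676543, minus strand) has the longest domain.
Mfsd2a: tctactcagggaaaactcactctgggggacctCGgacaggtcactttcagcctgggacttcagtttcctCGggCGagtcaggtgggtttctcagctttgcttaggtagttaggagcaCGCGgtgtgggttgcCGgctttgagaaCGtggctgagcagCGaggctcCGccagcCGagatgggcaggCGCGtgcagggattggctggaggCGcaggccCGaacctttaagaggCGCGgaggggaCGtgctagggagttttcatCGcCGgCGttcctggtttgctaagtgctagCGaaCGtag
Dbp: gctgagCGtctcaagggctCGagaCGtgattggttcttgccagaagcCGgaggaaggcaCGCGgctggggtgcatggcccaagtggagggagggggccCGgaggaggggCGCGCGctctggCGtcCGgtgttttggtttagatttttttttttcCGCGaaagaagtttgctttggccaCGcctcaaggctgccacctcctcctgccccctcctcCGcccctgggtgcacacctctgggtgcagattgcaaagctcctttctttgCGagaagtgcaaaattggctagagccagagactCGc
Selenbp2: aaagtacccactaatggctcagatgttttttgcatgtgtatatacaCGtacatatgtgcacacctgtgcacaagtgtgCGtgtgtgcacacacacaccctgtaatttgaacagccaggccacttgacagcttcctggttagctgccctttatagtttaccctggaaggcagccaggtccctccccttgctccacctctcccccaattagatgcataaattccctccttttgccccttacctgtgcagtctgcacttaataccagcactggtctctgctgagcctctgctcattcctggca
Cyp8b1: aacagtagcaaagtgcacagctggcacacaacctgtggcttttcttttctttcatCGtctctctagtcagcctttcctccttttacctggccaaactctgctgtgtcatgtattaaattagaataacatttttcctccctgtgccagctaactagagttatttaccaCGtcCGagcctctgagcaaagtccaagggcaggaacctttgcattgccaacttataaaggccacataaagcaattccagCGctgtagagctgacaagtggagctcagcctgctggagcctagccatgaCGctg
Mknk2: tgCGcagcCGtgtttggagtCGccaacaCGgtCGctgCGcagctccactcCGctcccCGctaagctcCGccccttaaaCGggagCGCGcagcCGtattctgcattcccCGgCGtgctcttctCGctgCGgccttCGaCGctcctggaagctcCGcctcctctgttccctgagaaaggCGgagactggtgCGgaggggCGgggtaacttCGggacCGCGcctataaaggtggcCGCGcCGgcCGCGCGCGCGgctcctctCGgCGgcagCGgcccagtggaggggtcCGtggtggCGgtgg
The Mfsd2a, Dbp and Mknk2 windows held 22, 18 and 39 CpGs. The Selenbp2 window held 2 and the Cyp8b1 window 5. The letters TATAAA, searched on both strands, occurred in the Selenbp2, Cyp8b1 and Mknk2 windows, and CAAAGTCCA occurred in that of Cyp8b1 among these 5.

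The broad domains made up 1.34% of all regions, 8.59% of the covered bases (4.41 Mb) and 11.4% of the H3K9ac reads. Their median length was 5037.5 bases and the longest was 18730 bases. The number of reads per length was also high. Levels are read counts scaled to library size with TMM factors (CPM), and density is CPM per kb, as the mean over the 6 libraries. The median was 22.3 CPM per kb in broad domains, against 16.3 in 15960 regions of 1000 to 3999 bases and 4.49 in 40769 regions under 1000 bases. Broad domains were not the densest regions. Their 90th percentile was 47.5 CPM per kb and their maximum 111, against 62.3 and 206 in the regions of 1000 to 3999 bases. Across the 770 domains, length and density were nearly unrelated (Spearman's rho -0.03, a description over regions that share the same 6 libraries). The lowest domain averaged 16.1 CPM, and the filter on low counts removed none of the 770.

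**Figure D1:**
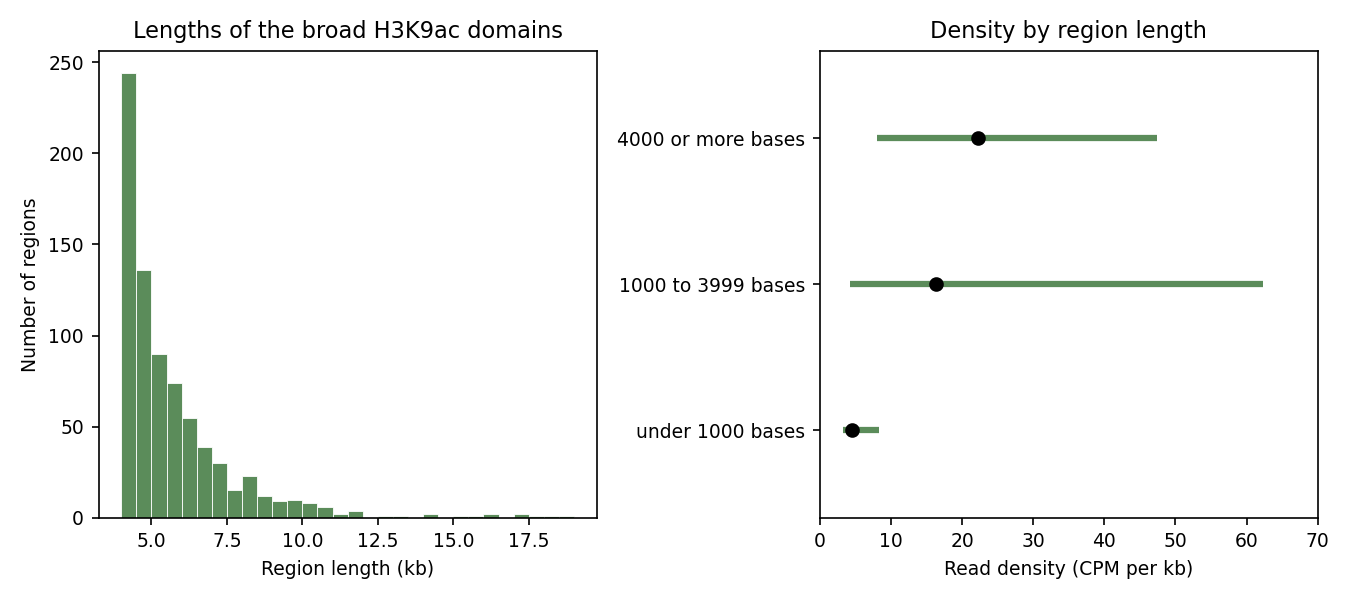
Left, the number of broad H3K9ac domains by region length in kb (bins of 0.5 kb). Right, the median read density (points) with the 10th to 90th percentile (bars) in CPM per kb for 3 classes of region length. The broad domains have the highest median, 22.3 CPM per kb, and regions of 1000 to 3999 bases reach higher at the 90th percentile, 62.3 against 47.5.

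Most broad domains lay over the start site named for them, and most of these ran further into the gene than before it. Of the 770, 544 (70.6%) spanned the start site that the authors' table names for them. The same held for 57.8% of the regions of 1000 to 3999 bases and for 7.42% of shorter ones. A longer region is more likely to hold a start site by its length alone, and no overlap given here was corrected for length. A spanning domain covered a median of 1615 bases before the start and 3571 bases after it, and 430 of the 544 (79.0%) were longer on the transcribed side. That was also the case for 78.0% of the spanning regions of 1000 to 3999 bases. The 544 had a median density of 27.8 CPM per kb, and the other 226 a median of 10.3. In 123 domains (15.97%) the middle lay over 10 kb from the named start. Named starts include those of microRNAs, and 346 domains (44.9%) held no RefSeq start of a protein-coding gene. Over 41615 regions of any length, 69.9% of the named starts lay within 1 base of the RefSeq start taken for the gene. An intron of some gene was recorded under 69.5% of the domains, and 91 (11.8%) overlapped an enhancer with a target gene from the authors' column for 3T3-L1, a mouse preadipocyte line.

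The 10 longest domains belonged to genes of different kinds. The longest covered Mknk2 (chr10:80662325-80681054), a kinase that phosphorylates the cap-binding protein eIF4E. The next was over Fasn (chr11:120808057-120826551, 18495 bases), the fatty acid synthase, and ran from 2005 bases before its start to 16490 bases after it. Egfl7, a factor secreted by endothelium, had 17698 bases. A region of 17302 bases named for Mir1191b lay over introns of Nfic, a nuclear factor I gene. Then came Klf15, a transcription factor of amino acid and glucose metabolism (17003 bases), Epha2, an ephrin receptor (16393), Rxra, the retinoid X receptor that pairs with many nuclear receptors (16052), and Zfpm1, a cofactor of GATA factors (15548). The last 2 were Apoe, an apolipoprotein (15475), and a region named for Mir6922 that holds a start of Srebf1, the regulator of fatty acid synthesis (14283).

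Long and dense were not the same domains. The 8 densest were between 4137 and 5656 bases long and all spanned a named start. Ubtf, a factor of ribosomal RNA transcription, and Brd2, a reader of acetylated histones, both had 111 CPM per kb. They were followed by Zmiz1 (97.0), a transcriptional coregulator, Jun (94.4), a subunit of AP-1, and Foxo3 (93.8), a target of insulin signalling. Klf9, a glucocorticoid-responsive factor, had 90.8, Smad7, the inhibitor of TGF-beta signalling, had 88.7, and Shb, an adaptor protein, had 87.0. The 4 sparsest domains all lay away from the named start, within introns of Zfpm1 (3.51), Sh3gl1 (4.63), Kctd10 (4.64) and of the overlapping genes Gm5424 and Ass1 (4.70).

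At the length limit, the regions just inside included Apeh (4004 bases, 23.6 CPM per kb) and Abcg8 (4008 bases, 23.7). The regions just outside were named for Cdpf1 (3999 bases, 6.12), 8430408G22Rik (3998 bases, 26.4) and B330016D10Rik (3997 bases, 7.93).

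Broad domains came in clusters at some genes. The domains were named for 675 genes, and 5 of the 770 had lost their gene name to a spreadsheet date. Of the genes, 64 had 2 or more domains, 154 in all. Rxra had 9, which added up to 78675 bases between chr2:27594967 and 27765669, and their densities ran from 5.52 to 44.8 CPM per kb with the highest over the start. H6pd, the hexose phosphate dehydrogenase of the endoplasmic reticulum, and Shb had 4 each. The 5 domains without a name all lay in introns of Sept9, a septin of the cytoskeleton, and added up to 33893 bases.

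Genes for transcription factors and for rapid responses often had a broad domain. Of all 16383 genes named for a region, 675 (4.12%) had one. Of 25 immediate early and stress genes, 15 (60%) did, among them Jun, Junb, Jund, Egr1, Myc and Atf3. Of 24 hepatocyte transcription factors, 14 (58.3%) did, among them Hnf4a (4102 bases), Cebpa (9426) and Cebpb (8435). In lipid and sterol metabolism it was 12 of 30 (40%), with the fatty acid synthesis genes Fasn and Acly and the fatty acid importer of mitochondria Cpt1a. In insulin and growth hormone signalling it was 7 of 23 (30.4%), in secreted plasma proteins 8 of 30 (26.7%), and in clock genes 5 of 19 (26.3%). These lists were drawn up with earlier results of these data known, and their shares are descriptions.

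The other lists had smaller shares. Of 24 genes of xenobiotic metabolism 0 had a broad domain, of 74 cytosolic ribosomal protein genes 4 (5.41%), and of 67 subunits of oxidative phosphorylation 3 (4.48%). Only 18 of the 24 xenobiotic genes were named for any region, and their longest region had 3914 bases, just under the limit. In all lists a domain counts for the gene it is named for, even where it lies away from that gene's start, as for Rps14 and Ndufb9. Among 30 chromatin regulators 4 had one (13.3%), among them Brd2, Smarca2 and Kdm6b. Of the marker lists for single cell types, hepatocyte markers had 2 of 12, endothelial markers 2 of 12 (Eng and Egfl7) and cholangiocyte markers 1 of 7. Kupffer cell markers had 0 of 13 and stellate cell markers 0 of 12. Reads of near-identical genes may be split, which makes Serpina1a, Selenbp2 and the pair Gm5424 and Ass1 uncertain.

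**Figure D2:**
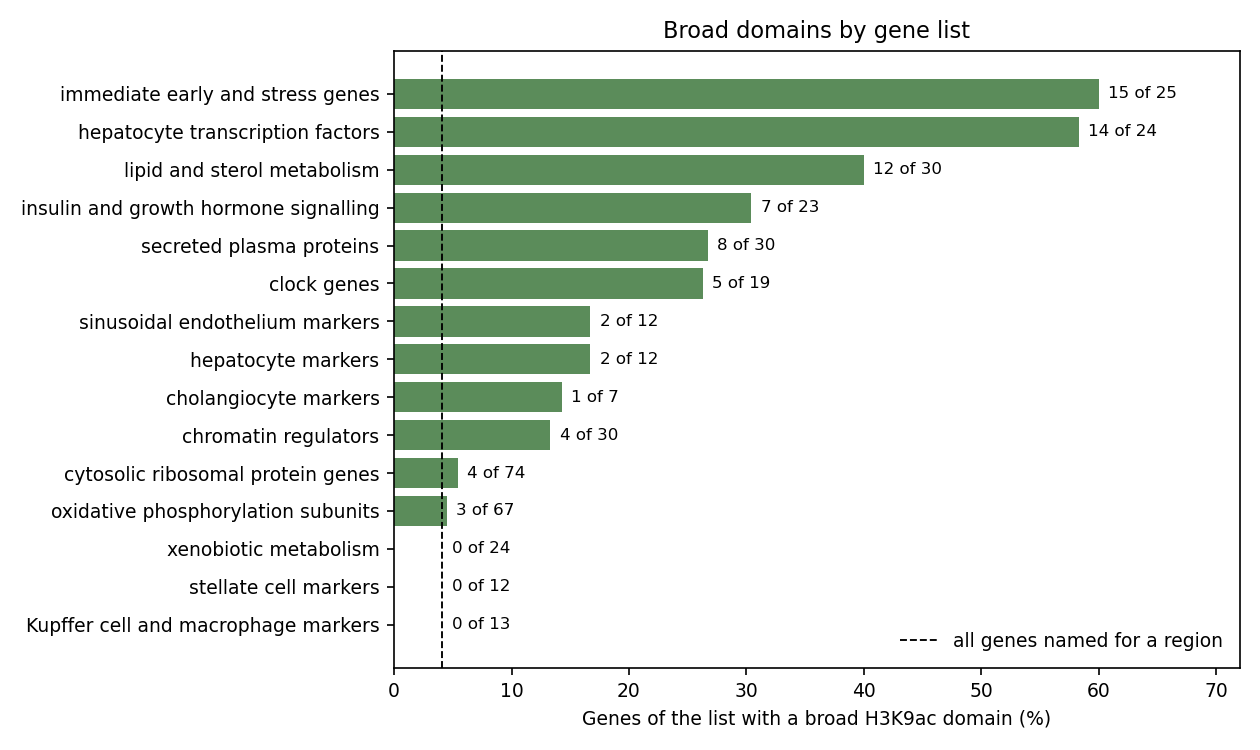
Share of the genes of each list, in percent, that are named for a broad H3K9ac domain, with the counts beside the bars. The dashed line is the share of all genes named for any region, 4.12%. Immediate early genes (60%) and hepatocyte transcription factors (58.3%) are at the top, and 3 lists have no gene with a broad domain.

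Genes with a broad domain had a higher median RNA level than the table as a whole. Of the 675 genes, 612 were in the RNA table. Their median level was 13.5 FPKM (reads scaled to transcript length and library size, from the authors' log2 values), against 6.11 for genes with a region of 1000 to 3999 bases over the start and no broad domain, and 5.34 for all 12334 genes. Of the top 10% of the table by FPKM 12.6% had a broad domain, of the lower 50% 2.71% and of all genes 4.96%. Of the 20 most abundant transcripts 3 had one, Apoe (9822 FPKM), Trf, the iron carrier transferrin (8014), and Apoa1, the main protein of HDL (7019). The 20 include Mup3, Mup20 and Mup7, genes with close paralogs whose reads may be split. The widest region of Alb, the serum albumin gene of hepatocytes and the most abundant transcript (38037 FPKM), was 579 bases long. Within the 500 genes whose start lay in a broad domain, FPKM was weakly related to the density (Spearman's rho 0.17) and to the length of the domain (0.15). These are descriptions across genes of the same libraries.

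Promoters in broad domains held nearly as many CpGs as those in regions of 1000 to 3999 bases, and more than those in shorter regions. The RefSeq windows of 597 protein-coding start sites inside a broad domain had a median of 22 CpGs. The median was 23 for 9464 windows in regions of 1000 to 3999 bases, 15 in regions under 1000 bases and 3 outside any region. TATAAA was found in 7.71% of the windows in broad domains, 5.30% of those in regions of 1000 to 3999 bases and 12.6% of all windows. CACGTG, the E-box letters bound by clock and other basic helix-loop-helix factors, was in 10.9% of the windows in broad domains, 10.3% of those in regions of 1000 to 3999 bases and 7.84% of all. TTGCNNAA, part of the C/EBP motif, was in 6.87%, 6.97% and 10.2% of these windows. CAAAGTCCA, an HNF4 motif, was in 0.335%, 0.359% and 0.451% of them. All were searched on both strands in 300 bases, and a match is only a description of the letters.

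As a whole, the broad domains held similar shares of the H3K9ac reads in both diets. They held 11.7%, 11.4% and 11.1% of the reads in HFD livers A, B and D, against 11.8%, 11.5% and 11.1% in CD livers A, C and D. The mean was 11.4 ± 0.306% on HFD and 11.5 ± 0.318% on CD (SD, n = 3 each), and the ranges overlap. The median log2 change over the 770 domains was -0.01. Single domains did differ. With edgeR's quasi-likelihood test and Benjamini-Hochberg adjustment over all regions, 44 were higher and 65 lower on HFD, where 0.835% of all 57499 regions were higher and 1.55% lower. The 109 are 14.2% of the broad domains. Broad domains hold more reads, and the median standard error (SE) of the log2 change was 0.08 in broad domains against 0.117 in regions of 1000 to 3999 bases. Of 11065 shorter regions at or above the level of the lowest broad domain, 4.58% passed in either direction. Of 1334 shorter regions at or above the median level of the broad domains, 3.3% did. HFD and CD values did not overlap in 192 domains (24.9%), against 15.4% of all regions. Without HFD liver B the count of domains fell to 61, 29 higher and 32 lower, and the count over all regions to 563. The split between directions moved with single livers: 24 were higher and 49 lower without HFD liver A, 78 and 74 without HFD liver D, and 41 and 41 without CD liver A. DESeq2 called 69 domains and 798 of all regions. Changes of 2-fold or more were found in 7 domains. Called or not, 91 of the 15960 regions of 1000 to 3999 bases and 751 of the 40769 shorter ones had such a change.

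In bulk liver, fewer cells of a type and less of the mark or RNA per cell cannot be told apart. The H3K9ac at start sites of marker genes was summed for each cell type. For 9 stellate cell markers the sum ran from 145 to 170 CPM on HFD and from 118 to 132 CPM on CD, with 1 region higher. For 5 cholangiocyte markers it ran from 250 to 276 CPM on HFD and from 295 to 334 CPM on CD, with 1 region lower. The ranges overlapped for 10 endothelial markers (274 to 300 CPM on HFD, 276 to 324 CPM on CD) and 4 hepatocyte markers (409 to 492 CPM on HFD, 382 to 502 CPM on CD). The 1 Kupffer cell marker with a region at its start held 0.681 to 2.86 CPM on HFD and 1.34 to 2.25 CPM on CD. The part of cell composition in the called domains was not tested.

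Calls were found at all lengths. Of 380 domains of 4 to 5 kb, 19 were higher and 23 lower on HFD, together 11.1% beside 14.2% of all broad domains. Of 164 domains of 5 to 6 kb, 13 were higher and 13 lower (15.9%), and of 139 domains of 6 to 8 kb, 10 and 19 (20.9%). Of the 87 domains of 8 kb or more, 2 were higher and 10 lower (13.8%). Among the 10 longest, the domain in Zfpm1 was lower (log2 change -0.45, SE 0.07, adjusted p = 2.2e-05) and the domain over Srebf1 named for Mir6922 was higher (0.39, SE 0.08, adjusted p = 0.00069, but 0.069 without HFD liver A). A second broad domain at Srebf1, over the start site named for that gene (4058 bases), had a log2 change of -0.04 (SE 0.07, adjusted p = 0.90). Of the 8 densest 0 passed in edgeR or DESeq2, and 0 had an unadjusted p under 0.05, with log2 changes from -0.08 to 0.06. Of the 544 domains over a named start 32 were higher and 39 lower (13.1%). Of the 123 whose middle lay over 10 kb away 7 were higher and 19 lower (21.1%). Differences between these classes were not tested.

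**Figure D3:**
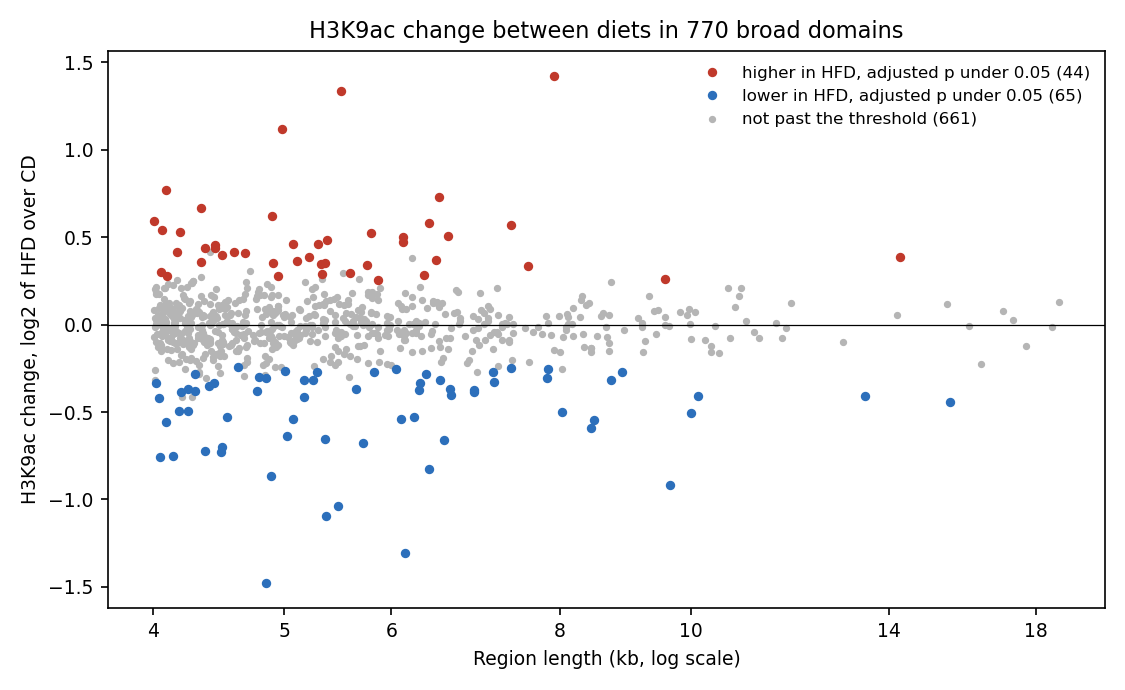
H3K9ac change as log2 of HFD over CD against region length in kb (log scale) for 770 broad domains. Red points (44) were higher and blue points (65) lower on HFD with an adjusted p under 0.05, and grey points (661) did not pass. The 7 changes of 2-fold or more lie below 8 kb, and the domains of 14 kb and more change by less than 0.5 on the log2 scale.

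The largest increase was at Mfsd2a, the transporter of lysophospholipids (chr4:122954414-122962334). Its domain had 228, 214 and 161 CPM in HFD livers A, B and D, against 65.5, 92.7 and 66.8 CPM in CD livers A, C and D. All HFD values were above all CD values (log2 change 1.42, SE 0.10, adjusted p = 7.4e-18). Next was Dbp, a clock-controlled transcription factor (chr7:45703696-45709205), with 340, 335 and 314 CPM in HFD livers A, B and D, against 112, 151 and 129 CPM in CD livers A, C and D. The lowest HFD liver was over 2 times the highest CD liver (log2 change 1.34, SE 0.08, adjusted p = 7.1e-21). The domain of Usp2, a ubiquitin-specific protease under circadian control, had 208, 201 and 136 CPM in HFD livers A, B and D, against 91.3, 84.8 and 75.5 CPM in CD livers A, C and D. HFD liver D was the lowest HFD liver but above every CD liver (log2 change 1.12, SE 0.09, adjusted p = 4.5e-14).

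The other 5 of the 8 largest increases were smaller. A domain named for Wbp1l and lying in an intron of Sfxn2, a mitochondrial carrier, had 39.1, 34.7 and 24.93 CPM in HFD livers A, B and D, against 16.4, 24.91 and 16.6 CPM in CD livers A, C and D. HFD liver D and CD liver C nearly met, and the call was lost in DESeq2 (log2 change 0.77, SE 0.14, adjusted p = 9.9e-05, and 0.12 in DESeq2). In Prodh, the proline dehydrogenase, the change was 0.73 (SE 0.09, adjusted p = 6.8e-09), and over Gpc1, a heparan sulphate proteoglycan, it was 0.67 (SE 0.09, adjusted p = 1e-07). Abcg8, whose product exports sterols into bile together with Abcg5, had 126.0, 126.4 and 90.9 CPM in HFD livers A, B and D, against 74.9, 85.8 and 66.7 CPM in CD livers A, C and D. The diets did not overlap (log2 change 0.60, SE 0.09, adjusted p = 8.9e-06), and the domain also holds the start of Abcg5. In the shared introns of Gm5424 and Ass1 the change was 0.62 (SE 0.13, adjusted p = 0.00091). HFD liver D had the lowest of the HFD values in 7 of these 8 domains, Gpc1 being the exception.

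The largest decrease was at Selenbp2, a selenium-binding protein gene with a close paralog (chr3:94693406-94698252). Its domain had 16.2, 17.3 and 17.1 CPM in HFD livers A, B and D, against 71.2, 46.0 and 22.97 CPM in CD livers A, C and D. The HFD livers were alike and the CD livers ranged widely without meeting them (log2 change -1.48, SE 0.17, adjusted p = 2.9e-09, but 0.053 in DESeq2). The domain of Cyp8b1, the sterol hydroxylase needed to make cholic acid (chr9:121911301-121916671), had 99.5, 95.7 and 95.4 CPM in HFD livers A, B and D, against 213, 198 and 210 CPM in CD livers A, C and D. Values varied little within each diet and were far apart between them (log2 change -1.10, SE 0.07, adjusted p = 1e-17). Gpd1, the glycerol phosphate dehydrogenase that links glycolysis to triglyceride synthesis, had 81.2, 73.8 and 75.8 CPM in HFD livers A, B and D, against 139, 114 and 137 CPM in CD livers A, C and D. All HFD values lay below all CD values (log2 change -0.75, SE 0.08, adjusted p = 8.5e-10).

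The other 5 of the 8 largest decreases did not span their named start. The domain named for Mir6995 lay in an intron of Sh3pxd2a, a scaffold protein of podosomes, and had 18.9, 19.1 and 19.4 CPM in HFD livers A, B and D, against 52.1, 41.9 and 48.3 CPM in CD livers A, C and D. The groups were far apart (log2 change -1.31, SE 0.11, adjusted p = 1.1e-13). Near Xirp1, an actin-binding protein known from muscle, the change was -1.04 (SE 0.10, adjusted p = 1.1e-11). Near Osgin1, a gene induced by oxidative stress, it was -0.82 (SE 0.09, adjusted p = 1.3e-09). In an intron of Ergic1, a protein of the secretory pathway, it was -0.87 (SE 0.10, adjusted p = 4.4e-09).

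**Figure D4:**
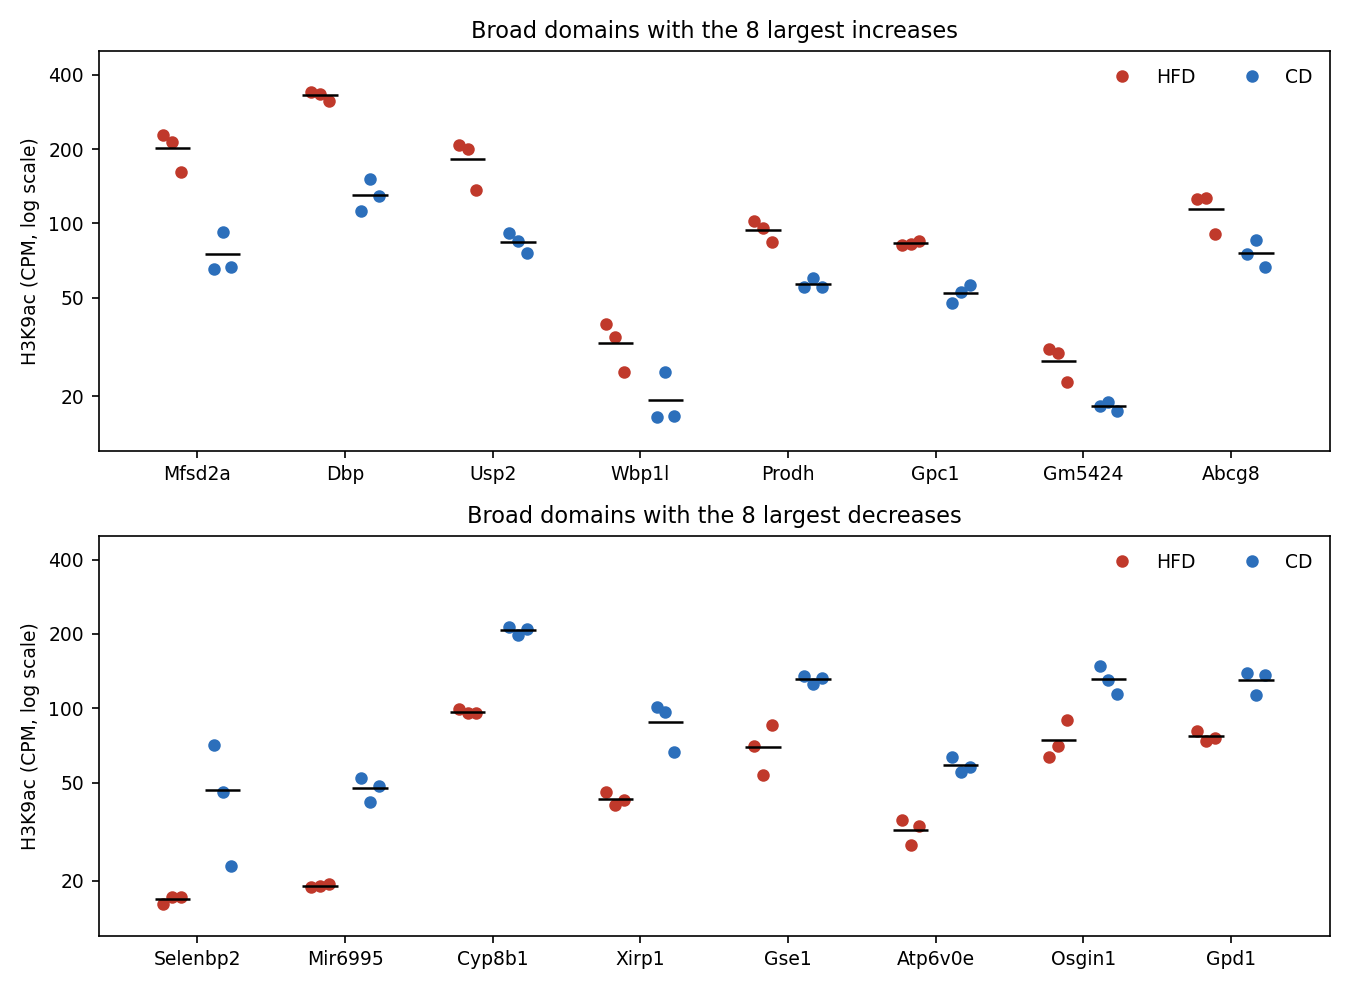
H3K9ac level in CPM (log scale) of the broad domains with the 8 largest increases (top) and the 8 largest decreases (bottom) on HFD, labelled by the gene named in the authors' table. Each point is 1 liver, HFD (red) left of CD (blue), and bars are means. The diets do not overlap in any of the 16, and the CD values of Selenbp2 run from 22.97 to 71.2 CPM.

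Where more than 1 domain of a gene was called, all of them moved in one direction. Of the 64 genes with several domains together with the Sept9 group, 13 had a called domain and 5 had 2 or more, and in 0 of them did domains pass in both directions. These genes were chosen after their values were seen. A gene with several domains has more chances of a call, and 14.2% of all broad domains were called. Called domains of a gene can be close neighbours, as at Osgin1, so a shared direction is only a description. At Sept9 all 5 domains were lower on HFD, with log2 changes from -0.59 to -0.37. Its largest domain (chr11:117277800-117286268) had 114, 103 and 109 CPM in HFD livers A, B and D, against 181, 115 and 179 CPM in CD livers A, C and D. CD liver C was close to the HFD livers there (log2 change -0.54, SE 0.09, adjusted p = 6.5e-05), and DESeq2 gave an adjusted p of 0.23. In all, 4 of the 5 lost their call in DESeq2, with adjusted p values from 0.067 to 0.23. For 2 of the 5 Sept9 domains the diets overlapped, and single livers decided those calls: without CD liver D the adjusted p values were 0.32 and 0.079, and without HFD liver B 0.197 and 0.193. Without CD liver A one of these had 0.13, and without HFD liver A the other had 0.058. At Osgin1 the second called domain (log2 change -0.26) was lost without any one of CD liver A, CD liver C, HFD liver A or HFD liver B, with adjusted p values from 0.15 to 0.37.

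At Gse1, which encodes a protein of histone deacetylase complexes, 3 of 4 domains were lower on HFD. The largest (chr8:120492201-120501847) had 70.3, 53.4 and 85.3 CPM in HFD livers A, B and D, against 135, 126 and 132 CPM in CD livers A, C and D. No HFD liver reached a CD liver (log2 change -0.92, SE 0.09, adjusted p = 6.8e-11). The one over a start site next to it fell as well (log2 change -0.65, SE 0.09, adjusted p = 9.1e-07). In DESeq2 its log2 change was -0.64 and the call was lost (adjusted p = 0.17). The fourth, at another start within the gene (chr8:120535327-120540689), had 218, 181 and 262 CPM in HFD livers A, B and D, against 218, 184 and 246 CPM in CD livers A, C and D (log2 change 0.03, SE 0.09). Of the 9 Rxra domains 0 passed in edgeR or DESeq2, and 0 had an unadjusted p under 0.05, with log2 changes from -0.13 to 0.17.

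Of the 6 broad domains of clock genes 3 were higher on HFD and 0 lower, together 50% beside 14.2% of all broad domains. Per2, a repressor of the clock, had 204, 177 and 158 CPM over its start in HFD livers A, B and D, against 144, 116 and 127 CPM in CD livers A, C and D. The diets did not overlap (log2 change 0.47, SE 0.08, adjusted p = 5.7e-05). Per1 changed by 0.41 (SE 0.09, adjusted p = 0.0014, but 0.055 without HFD liver A), and Dbp is given above. Nr1d1, the repressor REV-ERB alpha, had a log2 change of 0.22 (SE 0.08, adjusted p = 0.15), and Bhlhe40 one of -0.01 (SE 0.07). The second Per2 domain, away from the start, had a log2 change of -0.12 (SE 0.08, adjusted p = 0.66).

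The domains of hepatocyte transcription factors showed no call. Of their 23 domains edgeR called 0 in either direction and DESeq2 0, and 2 had an unadjusted p under 0.05, both lower. The median log2 change was -0.05. Hnf4a had a log2 change of -0.03 (SE 0.09), Cebpa -0.05 (SE 0.07) and Cebpb -0.13 (SE 0.06). A p that misses the threshold does not show that these were equal between the diets. In lipid and sterol metabolism 1 of 13 domains was higher (Abcg8) and 1 lower (Cyp8b1), together 15.4% beside 14.2% of all broad domains, while Fasn had a log2 change of -0.02 (SE 0.07). The domains of secreted plasma proteins (9), chromatin regulators (6), ribosomal proteins (4) and oxidative phosphorylation (5) had 0 calls in edgeR and 0 in DESeq2. At an unadjusted p under 0.05 there were 1 chromatin regulator (Smarca2, log2 change 0.23, SE 0.07) and 1 ribosomal protein (Rps14, -0.20, SE 0.08), and 0 in the other groups.

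Of the 16 domains of immediate early and stress genes edgeR called 2 lower on HFD and 0 higher, and DESeq2 called 0. The share called in edgeR (12.5%) is near the 14.2% of all broad domains. Myc, a growth-related transcription factor, had 118, 139 and 132 CPM in HFD livers A, B and D, against 201, 209 and 137 CPM in CD livers A, C and D. CD liver D lay among the HFD livers (log2 change -0.50, SE 0.09, adjusted p = 0.00015, but 0.27 in DESeq2). Gadd45g, a stress-induced gene, had 219.2, 218.6 and 180 CPM in HFD livers A, B and D, against 298, 316 and 211 CPM in CD livers A, C and D. Again CD liver D overlapped the HFD livers (log2 change -0.42, SE 0.09, adjusted p = 0.0011, but 0.13 without CD liver C and 0.41 in DESeq2). Irs1, the insulin receptor substrate, was the 1 called domain among 8 of insulin and growth hormone signalling, 12.5% beside 14.2% of all broad domains (log2 change -0.27, SE 0.07, adjusted p = 0.020). That call was lost without any one of CD liver C, CD liver D, HFD liver A or HFD liver B, with adjusted p values from 0.105 to 0.20.

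RNA changes among genes with a broad domain were more often increases than decreases. Of the 612 genes, 56 were higher and 29 lower on HFD (13.9%), with edgeR over all 12334 genes, of which 3.63% were higher and 3.64% lower. HFD and CD values did not overlap in 129 of them (21.1%), against 14.3% of all genes. The share of calls was not compared at matched RNA levels. The headings of the RNA columns hold sample numbers that do not interleave between the diets, so diet and whatever the numbers stand for cannot be told apart. The summed RNA of the 12 hepatocyte markers ran from 108225 to 133932 CPM on HFD and from 90828 to 107954 CPM on CD, and 5 of the 12 were higher on HFD. Alb, at 38037 FPKM beside a median of 892 FPKM for these markers, weighs heavily in that sum. For 6 cholangiocyte markers the sum ran from 57.4 to 83.7 CPM on HFD and from 84.6 to 100 CPM on CD, with 1 lower. The ranges overlapped for 12 endothelial markers (174 to 333 CPM on HFD, 208 to 285 CPM on CD), 12 Kupffer cell markers (220 to 570 CPM on HFD, 276 to 386 CPM on CD) and 12 stellate cell markers (311 to 546 CPM on HFD, 406 to 473 CPM on CD). Of these, 0 were called by edgeR or DESeq2, and at an unadjusted p under 0.05 there were 1 endothelial marker higher and 2 stellate cell markers lower. Emr1 and Cftr were not in the RNA table. Their part in the RNA results was not tested either.

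The largest RNA increases included the genes of the most increased domains. Dbp RNA was at 143, 118, 57.0 and 62.2 CPM in HFD livers A to D, against 0.9002, 0.613, 0.890 and 1.61 CPM in CD livers A to D. Its lowest HFD value was far above its highest CD value (log2 change 6.57, SE 0.41, adjusted p = 2.5e-05). Mfsd2a RNA was at 208, 214, 57.5 and 77.1 CPM in HFD livers A to D, against 4.94, 6.79, 6.70 and 8.43 CPM in CD livers A to D. HFD livers A and B were higher than C and D, and all 4 were above CD (log2 change 4.37, SE 0.44, adjusted p = 0.00035). Per1 changed by 3.66 (SE 0.41) and Usp2 by 3.42 (SE 0.57). Grin3b, a glutamate receptor gene of 0.204 FPKM, changed by 2.05 (SE 0.40).

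The 6 largest RNA decreases were those of Egr1, Myc, Selenbp2, Xirp1, Jun and Osgin1. Egr1, a growth factor responsive gene, was at 2.90, 4.13, 3.26 and 4.65 CPM in HFD livers A to D, against 17.8, 15.8, 94.8 and 35.3 CPM in CD livers A to D. The CD livers differed among themselves more than the HFD livers, without overlap (log2 change -3.45, SE 0.55, adjusted p = 0.0039). Jun was at 9.11, 9.495, 8.99 and 11.9 CPM in HFD livers A to D, against 25.4, 44.7, 25.2 and 34.8 CPM in CD livers A to D. All CD livers were above all HFD livers (log2 change -1.72, SE 0.19, adjusted p = 0.00061). Myc changed by -2.62 (SE 0.53, adjusted p = 0.014), Selenbp2 by -2.11 (SE 0.33), Xirp1 by -1.74 (SE 0.31, at 0.122 FPKM) and Osgin1 by -1.51 (SE 0.18). Cyp8b1 RNA was at 182, 122, 133 and 192 CPM in HFD livers A to D, against 467, 348, 433 and 531 CPM in CD livers A to D. Its diets did not overlap (log2 change -1.50, SE 0.18, adjusted p = 0.00075).

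Where both assays passed, they moved in the same direction with 1 exception. Among the domains over their named start, 30 higher ones had a gene in the RNA table, and 18 of these genes were higher in RNA and 0 lower. Of 32 lower ones, 9 were lower in RNA and 1 was higher, 1700001C19Rik. Of the 445 that did not pass, 30 were higher in RNA and 16 lower. Over the other H3K9ac fits and with each library left out, the higher domains with higher RNA numbered 11 (without HFD liver A) to 26 (without HFD liver D), and the lower ones with lower RNA 4 (DESeq2) to 11. Without HFD liver B they numbered 12 and 5, without CD liver C 13 and 5. Over the 500 genes, the log2 changes of the 2 assays had a Spearman's rho of 0.50, a description across genes. For domains away from the named start the counts were lower: 1 of 8 higher ones with measured RNA was higher in RNA, and 3 of 14 lower ones were lower.

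Many RNA changes came without a called change of the broad domain. Of 49 genes higher in RNA whose start lay in a broad domain, 18 had a domain higher in H3K9ac, 1 a lower one and 30 neither. Of 25 domains over genes lower in RNA, 9 were lower and 16 neither. Jun, with one of the densest domains, had 414, 368 and 430 CPM of H3K9ac in HFD livers A, B and D, against 433, 450 and 402 CPM in CD livers A, C and D. These overlapped (log2 change -0.08, SE 0.07, adjusted p = 0.73). The Egr1 domain had 94.5, 97.1 and 103 CPM in HFD livers A, B and D, against 114, 106 and 119 CPM in CD livers A, C and D. Here all HFD values lay below all CD values, as in RNA, but the change did not pass (log2 change -0.20, SE 0.08, adjusted p = 0.23). Klf15 RNA was higher (log2 change 1.08, SE 0.19, adjusted p = 0.0067) with a domain change of 0.08 (SE 0.07). Bhlhe40 RNA was higher (1.45, SE 0.18, adjusted p = 0.00092) with a domain change of -0.01. Cpt1a RNA was higher (0.89, SE 0.12, adjusted p = 0.0013) with a domain change of 0.12 (SE 0.07). In the other direction, Gpd1 had a lower domain and an RNA change of -0.27 (SE 0.13, adjusted p = 0.29), and Irs1 a lower domain and an RNA change of 0.29 (SE 0.12, adjusted p = 0.19).

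**Figure D5:**
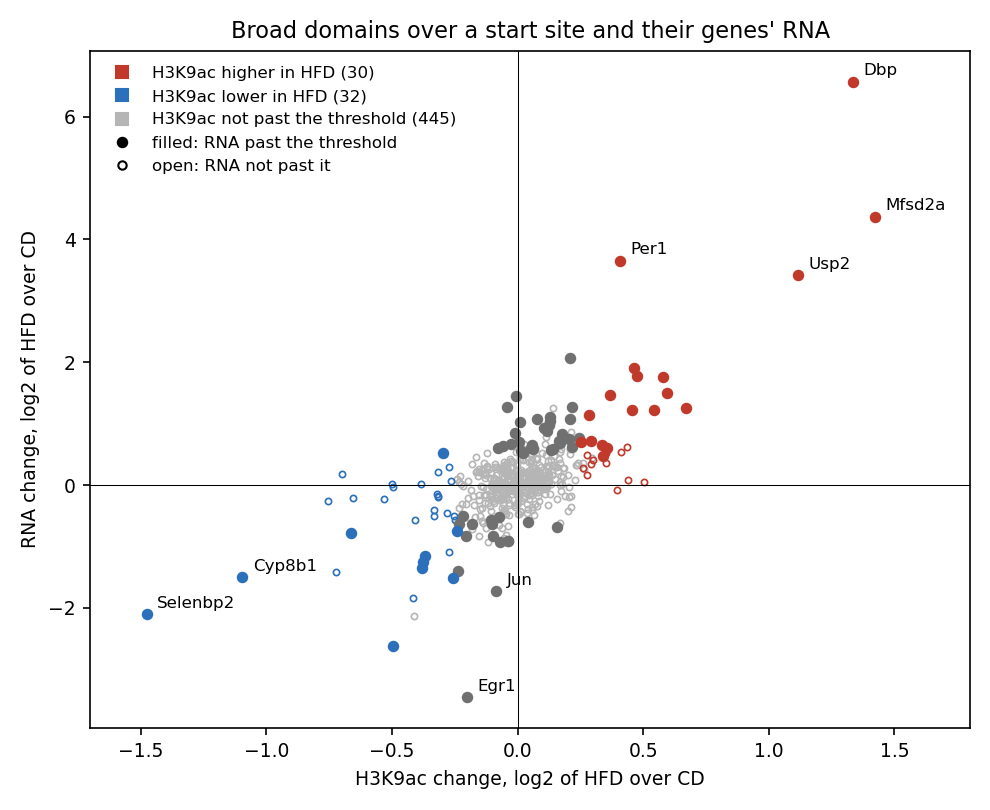
H3K9ac change of each broad domain over its named start site against the RNA change of the gene, both as log2 of HFD over CD. Colours give the H3K9ac call (30 higher, 32 lower, 445 neither) and filled points passed in RNA. Dbp, Mfsd2a and Usp2 are high in both, Selenbp2 and Cyp8b1 low in both, and Egr1 and Jun are low in RNA with H3K9ac changes of -0.20 and -0.08.

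Over the 5 clock genes with a broad domain, RNA was higher on HFD in all 5. Of all genes 3.63% were higher and 3.64% lower, and of the 612 genes with a broad domain 13.9% were called. Per2 changed by 1.77 (SE 0.25, adjusted p = 0.0021) and Nr1d1 by 1.27 (SE 0.27, adjusted p = 0.019, but 0.060 without CD liver A and 0.057 without CD liver C). In the whole list of 19 clock genes 12 were higher and 4 lower. Of the 15 immediate early genes with a broad domain, 1 was higher in RNA (Klf15) and 5 lower (Egr1, Jun, Junb, Myc and Zfp36l1). The Junb call (-0.90, SE 0.22, adjusted p = 0.033) was lost without any one of CD livers B, C or D or HFD livers B or C, with adjusted p values from 0.056 to 0.11. In lipid and sterol metabolism 4 of 12 were higher in RNA and 1 lower. Srebf1 RNA changed by 1.27 (SE 0.26, adjusted p = 0.014, but 0.051 without HFD liver B), and Fads1, a fatty acid desaturase, by 0.76 (SE 0.14, adjusted p = 0.010). Of the 14 hepatocyte transcription factors 1 was higher, Nr2f2 (0.52, SE 0.11, adjusted p = 0.018). In edgeR that call was lost with library totals as the scaling (adjusted p = 0.059), without CD liver C (0.057) and without HFD liver B (0.054).

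The promoters of changed domains were also described. The median number of CpGs was 18 in 36 windows inside domains higher on HFD, 20 in 43 windows inside lower ones and 22 in 518 windows inside domains that did not pass. TATAAA was found in 8.33%, 13.95% and 7.14% of these windows. CACGTG was in 8.33%, 11.6% and 11.0% of them, TTGCNNAA in 5.56%, 2.33% and 7.34%, and CAAAGTCCA in 0%, 2.33% and 0.193%. The windows belong to 29, 35 and 411 genes, so in the changed domains single windows move these shares. Differences were not tested.

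By the authors' deposited table, 81 of the 770 broad domains had a false discovery rate under 0.05, 34 higher and 47 lower on HFD. Of all 57499 regions 1382 did. All 81 were among the 109 called here.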

How the data were processed

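For each assay a single table was deposited by the authors. The H3K9ac table, per the file headers, holds raw read counts per region in a region set common to all libraries, with region length, named gene, start-site distance, log2 fold change and p-value. The RNA table of the authors holds raw counts per gene and log2 FPKM. The build is mm10, per the submitters' processing notes. The aligner, the peak caller, the counter and its strand setting were not given in the sources used here, and region length depends on the caller. Total counts per library ran from 9255635 to 12149497 in H3K9ac and from 31802893 to 37596560 in RNA. No pair of libraries agreed within sampling noise (lowest chi-square per degree of freedom 1.49 in H3K9ac).

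Counts were fitted over all regions or all genes with edgeR 4.0.16 in R 4.3.3 (TMM, filterByExpr, which removed none, glmQLFit and glmQLFTest, diet as the only term, two-sided, Benjamini-Hochberg, threshold 0.05). DESeq2 1.42.0 was the alternative test. Tested on simulated data with 2-fold changes, the fit recovered 89% of 200 changed regions with 7 false calls and 99.5% of 200 changed genes with 8. The changed features were drawn only from those with more reads, and the same spread was set for all features. These figures therefore do not describe features with few reads or a wider spread. SE is that of the log2 change, and CPM is TMM-scaled. A domain spans the start site named for it when that site lies between its ends, and distances run from the middle of the region. RefSeq promoter windows matched 479 of the 675 genes by symbol. The letters were not taken to pair the samples. Each library's deviations from the mean of its diet were correlated between diets. In H3K9ac the correlations were 0.09 (A) and 0.081 (D) for equal letters, and -0.118 to 0.046 for unlike letters. In RNA they ran from -0.222 to 0.295 for equal letters and from -0.414 to 0.368 for unlike ones.

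Domains named are the 10 longest, the 8 densest and 4 sparsest, the 8 largest increases and decreases past the threshold without overlap, the 3 on each side of the length limit, and up to 4 genes per list by smallest p. In RNA they are the 6 largest changes each way and the 4 highest by FPKM. Some genes that this rule names are not reported here. Further genes were chosen after their values were seen. The members and lists were chosen with earlier results of these data known.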

Additional observations from a re-analysis of the deposited data

Results flagged for a closer look

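In 7 of 140 groups of 4 RNA libraries (the named genes, each diet apart), 1 liver stood apart from the other 3, judged by the gap to its nearest neighbour as a share of the range of the group (Dixon's critical value 0.829). Chance alone flags about 1 group in 20, which is 7 of 140. Fasn in HFD livers had 816 CPM in liver C and 1495 to 1546 CPM in the others (0.93). Osgin1 in HFD livers had 78.3 CPM in liver B and 134 to 142 CPM in the others (0.875). In CD livers, Usp2 had 4.05 CPM in liver B and 2.34 to 2.42 CPM in the others (0.955), and Rxra had 341 CPM in liver D and 409 to 419 CPM in the others (0.871). Mlxipl, the carbohydrate response factor ChREBP, had 377 CPM in CD liver D and 277 to 290 CPM in the others (0.866). Abcg8 and the prothrombin gene F2 stood apart in CD liver A, with 63.7 against 76.9 to 79.3 CPM (0.846) and 1920 against 1683 to 1722 CPM (0.834). The groups of 3 H3K9ac libraries were not examined in this way.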

How the results depend on the processing

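The 109 broad domains called in H3K9ac became 69 with DESeq2 and 61 (without HFD liver B) to 152 (without HFD liver D) with each library left out. They became 212 of 1685 regions at a minimum length of 3000 bases and 41 of 226 at 6000 bases. The 85 genes called in RNA became 128 with DESeq2, 159 at 3000 bases and 32 at 6000 bases, and 58 to 95 with a library left out. The number of domains became 1577 when regions at most 500 bases apart were joined, of which 846 held no listed region of 4000 bases. The share of reads became 19.878% at 3000 bases and 4.604% at 6000 bases. The replicate block, fitted although the letters were not taken to pair the samples, gave 139 domains and 85 genes.

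Of 34 single domains tested for this, 13 lost their call in at least 1 alternative, and of 27 genes in RNA 6 did. None reversed. The calls at Mfsd2a, Dbp, Usp2 and Cyp8b1 held in every alternative run. The causes were not tested. The width of a region and the split of neighbouring domains rest on the authors' calling, and no input was used.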

Other observations

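Single libraries of a diet differed from the others at several of these domains, and the cause was not tested. At Socs2, an inhibitor of growth hormone signalling, the domain had 142, 225 and 128 CPM in HFD livers A, B and D, against 277, 283 and 97.4 CPM in CD livers A, C and D (log2 change -0.41, SE 0.15, adjusted p = 0.20 in edgeR). Its RNA was at 3.30, 12.7, 9.75 and 9.82 CPM in HFD livers A to D, against 74.3, 60.5, 15.5 and 5.005 CPM in CD livers A to D (adjusted p = 0.11 in edgeR). CD liver D was the lowest CD liver in both assays at Socs2, Myc and Gadd45g, although the labels do not state that a letter marks the same animal. Gadd45g RNA was at 28.1, 17.3, 5.48 and 7.39 CPM in HFD livers A to D, against 76.7, 71.5, 48.7 and 11.5 CPM in CD livers A to D.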
